A study of Mus musculus with 2 samples.

Results

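The genes described here are 10 genes whose products mark epithelial cells of many organs: Cdh1, Epcam, Esrp1, Esrp2, Grhl2, Ovol1, St14, Spint1, Spint2 and Rab25. They were chosen by gene symbol out of 29982 genes on the array, with earlier results of these data known, and all 10 had a probe. They serve to judge the share of epithelium in the RNA of each ureter pool. The RNA came from ureters of E16.5 mouse embryos on an NMRI background and was hybridised to 2 dual-colour oligonucleotide arrays. Each array set a pool of Pparg-cKO ureters (Pax2-cre/+; Pparg(fl/fl)) against a pool of control ureters, labelled Pparg(fl/?) with no cre allele given. Array 1 (replicate 1) carried female and array 2 (replicate 2) male pools, with the dyes exchanged. Cre driven by Pax2 sequences acts in the nephric duct and its derivatives, which include the epithelium of the ureter and the collecting ducts of the kidney, and the mesenchymal cells of the ureter keep the gene. Because the embryos were pooled, each array gives 1 ratio, and the spread between embryos was not measured.

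The labels and the study's text disagree on which genotype carried which dye. The name RNA A stands for the AlexaFluor647 (red) RNA of array 1 and the AlexaFluor555 (green) RNA of array 2, and RNA B is its partner on the same array. The labels call RNA A control and RNA B Pparg-cKO, which is opposite to the direction in the study's text. The fold changes of the authors' deposited table tracked the log2 ratio of RNA A to RNA B across 18540 probes, at a Pearson r of 0.997 on either array, where probes are not independent replicates. That table therefore runs from RNA B to RNA A. Every ratio below is log2 of RNA A over RNA B, so a negative value means a brighter signal in RNA B, and no direction between genotypes is given. Since the dyes were exchanged along with the sex, effects of dye and of sex cannot be told apart. Pparg itself, the targeted gene, gave signals of 11295 (RNA A) against 7430 (RNA B) on array 1, then 12888 against 7872 on array 2, and whether its probe lies in the deleted part was not analysed here, so these values do not settle which RNA was the mutant.

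Epithelial cells adhere to each other through E-cadherin, the product of Cdh1, whose cytoplasmic tail binds catenins, and through EpCAM, the product of Epcam. Transcription factors of the Grainyhead-like family (GRHL2) and of the OVO-like zinc finger family (OVOL1) maintain this state, and OVO-like and ZEB proteins repress each other's genes in several epithelia. ESRP1 and ESRP2 are RNA-binding proteins that direct epithelial splicing, for example of Fgfr2 transcripts. Matriptase, encoded by St14, is a membrane-anchored serine protease, and its inhibitors HAI-1 (Spint1) and HAI-2 (Spint2) carry Kunitz domains. RAB25 is a small GTPase of the RAB11 family that recycles membrane proteins to the apical side. In the fetal ureter the urothelium is an epithelial tube wrapped by mesenchyme and smooth muscle, so in RNA of the whole organ these genes follow both the epithelial share and the RNA per epithelial cell, which cannot be told apart.

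The 10 genes were read by 14 probes of 60 bases, 1 probe for each of 6 genes and more than 1 for Esrp1, Grhl2, Spint1 and Spint2. Probe sequences of the genes with several probes are shown because a claim on such a gene depends on which stretch of its transcript was read, and that of St14 because its ratio changed sign between the arrays by at least 1.5-fold each way. Stretches of 30 bases are printed 5′ to 3′ with the position of the whole probe in mm9 as the files give it. For the brighter Spint2 probe that interval spans 50 bases, fewer than the 60 of the probe. Lower case is used throughout, except for AATAAA, the canonical polyadenylation signal, in the brighter Esrp1 probe and for the 3 bases that the Spint1 probes share.
Esrp1 brighter probe (chr4:11260208-11260267, minus strand): tctctgtaaAATAAAgccttcttgctaggt
Esrp1 dimmer probe (chr4:11284629-11284688, minus strand): gggggcactttaaatcgaaatggcttgtcc
Grhl2 brighter probe (chr15:37293139-37293198, plus strand): gtgtgtacaatctgttcccacattaaaaaa
Grhl2 dimmer probe (chr15:37239426-37239485, plus strand): ttgaagagatcgcatacaatgctgtttcct
Spint1 brighter probe (chr2:119074929-119074988, plus strand): ATAgaaggacctgcttatccaagagctgga
Spint1 dimmer probe (chr2:119074872-119074931, plus strand): agcagccttgagccaggagtactgtatATA
Spint2 brighter probe (chr7:30041332-30041381, minus strand): agagagcaactgcttgcgtctgagatcatt
Spint2 dimmer probe (chr7:30066532-30066591, minus strand): caggtggccagccgagaactagacgtccac
St14 probe (chr9:30897249-30897308, minus strand): aagagttggagagagaacttgcgtgctagc
The letters AATAAA, searched on the sense strand, occurred in 1 of the 14 probes and in 12.6% of all 39429 probes. The Spint1 probes overlap by 3 bases, whereas those of Esrp1, of Grhl2 and of Spint2 lie far apart in the genome. Which part of a transcript each probe reads, coding or untranslated, was not analysed here. A gene is described by its brighter probe unless stated.

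Signals are Agilent's background-subtracted, dye-normalised intensities, averaged on the log2 scale over the kept spots of a probe. All 10 genes were well above background in both RNAs on both arrays, with signals between 102.3 and 6498, so the labelled tissue carried its epithelial markers. Of their 112 spots, 100 were kept and the rest had been marked as outliers. Each array held 157716 probe spots, of which 80.3% to 80.4% in green and 70.4% in red were well above background, and none was saturated. Xist and the Y-linked Ddx3y matched the labelled sex on both arrays. The number of arrays, 2, limits the precision of every comparison.

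No pan-epithelial gene was called different between the RNAs by limma (lmFit with eBayes on both log2 ratios, Benjamini-Hochberg adjusted p under 0.05 over 21429 genes), whose lowest adjusted p for any of them was 1.00. Of all genes tested, limma called 0.126% towards RNA A and 0.187% towards RNA B. At an unadjusted p under 0.05, 0 of the 10 passed, against 3.78% of genes tested. A filter after the study's methods asked that the fold reach 1.5 the same way on each array and that the brighter RNA have a signal of 100 or more. None of the 10 passed it towards RNA A, where 0.157% of all genes passed, or towards RNA B, where 0.23% did. St14 passed 1.5-fold in opposite directions, as did 0.43% of all genes.

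On array 1 the pan-epithelial genes leaned to RNA B and on array 2 they did not. The median log2 ratio of the 10 was -0.49 on array 1, where that of all genes tested was -0.00. On array 2 the medians were -0.01 and 0.03. On array 1, 7 of the 10 were brighter in RNA B, against 50% of genes tested, and 5 of them (Cdh1, Esrp2, Grhl2, Spint2 and St14) by at least 1.5-fold, against 4.91%. No member was 1.5-fold brighter in RNA A there, against 2.68%. On array 2, 5 were brighter in RNA B, against 45.8% of genes tested, and 1.5-fold was reached by St14 towards RNA A (background 3.47%) and by Esrp1 towards RNA B (background 3.71%). In the plots of signals and of ratios, these 5 genes lie apart on array 1, and on array 2 they lie closer or cross.

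**Figure D1:**
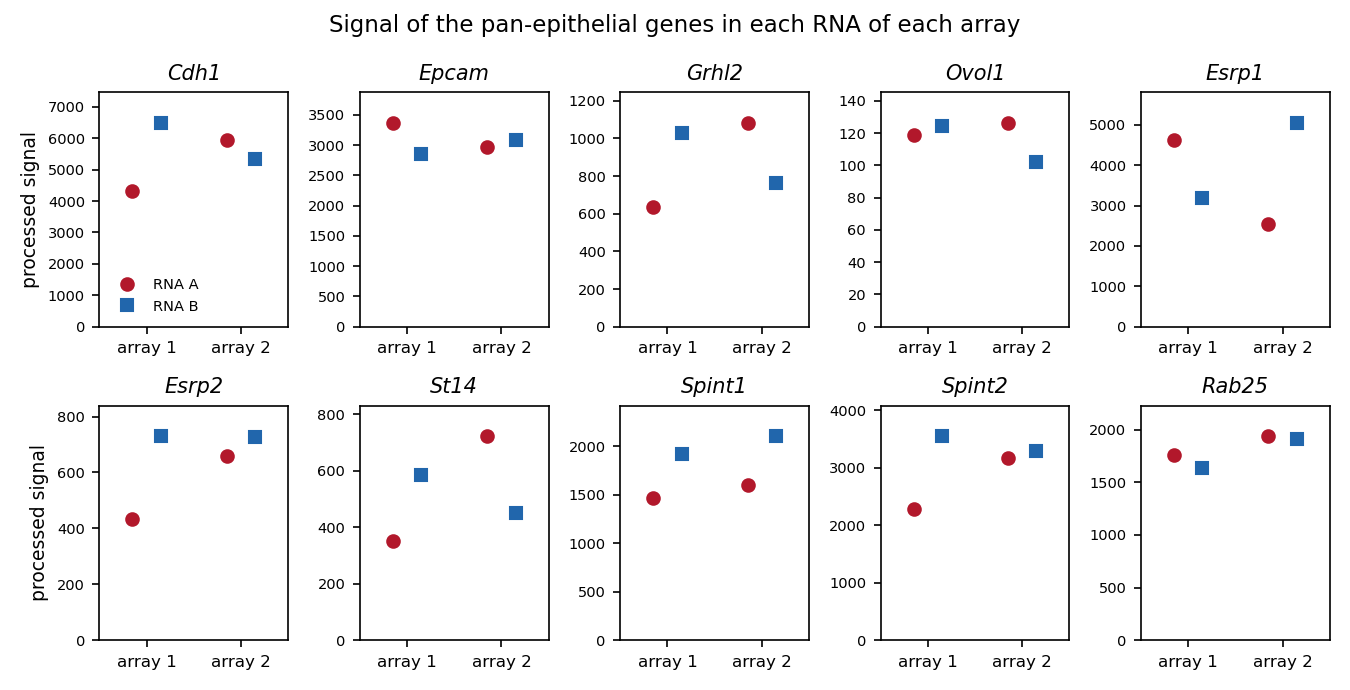
Signals of the 10 pan-epithelial genes in RNA A and RNA B (1 panel per gene, processed signal on a linear axis from 0 that differs between panels, 1 point per RNA and array, array 1 female and array 2 male pools). The points of St14 and Grhl2 cross between the arrays, whereas Spint1 has RNA B above RNA A on both.

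**Figure D2:**
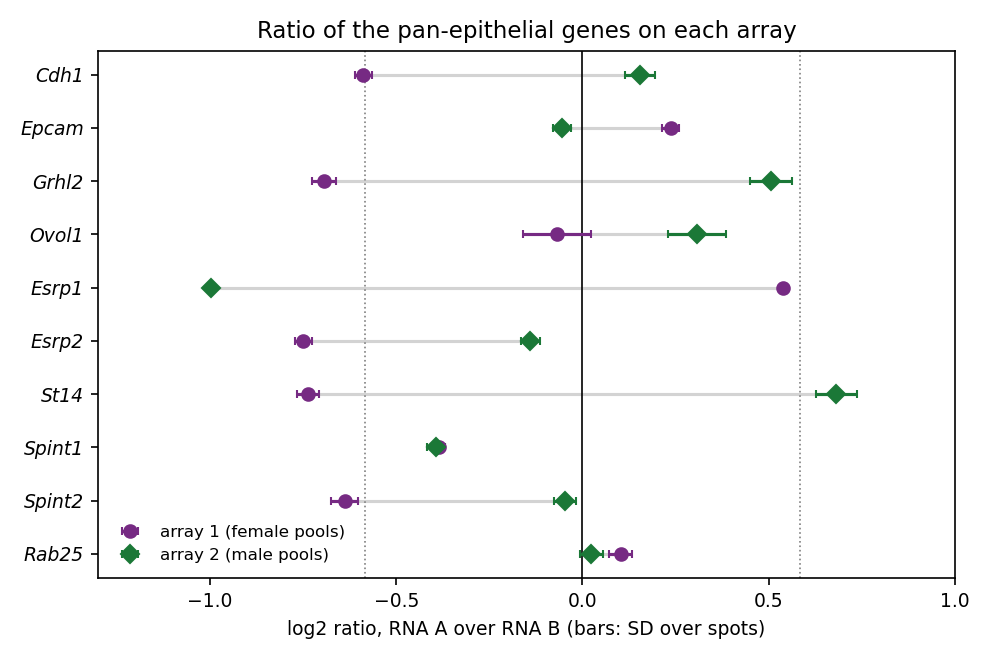
Log2 ratio of RNA A over RNA B for each pan-epithelial gene on each array, with bars for the SD over the kept spots of the probe (Esrp1 has 1 kept spot per array and no bar) and dotted lines at 1.5-fold either way. On array 1, 7 genes lie left of 0, and on array 2, 5 do.

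Signs that differ between the arrays were about as common among these genes as on the array as a whole. The ratio was below 0 on array 1 and above 0 on array 2 for 4 genes (Cdh1, Grhl2, Ovol1 and St14), a pattern held by 32.6% of genes tested. Such a gene was brighter in the AlexaFluor555 channel on both arrays. Epcam and, by its brighter probe only, Esrp1 had the reverse pattern, held by 28.4% of genes tested. For Esrp2, Spint1 and Spint2, RNA B was the brighter on each array, against 17.4% of genes tested, and Rab25 was brighter in RNA A on both, against 21.6%.

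**Figure D3:**
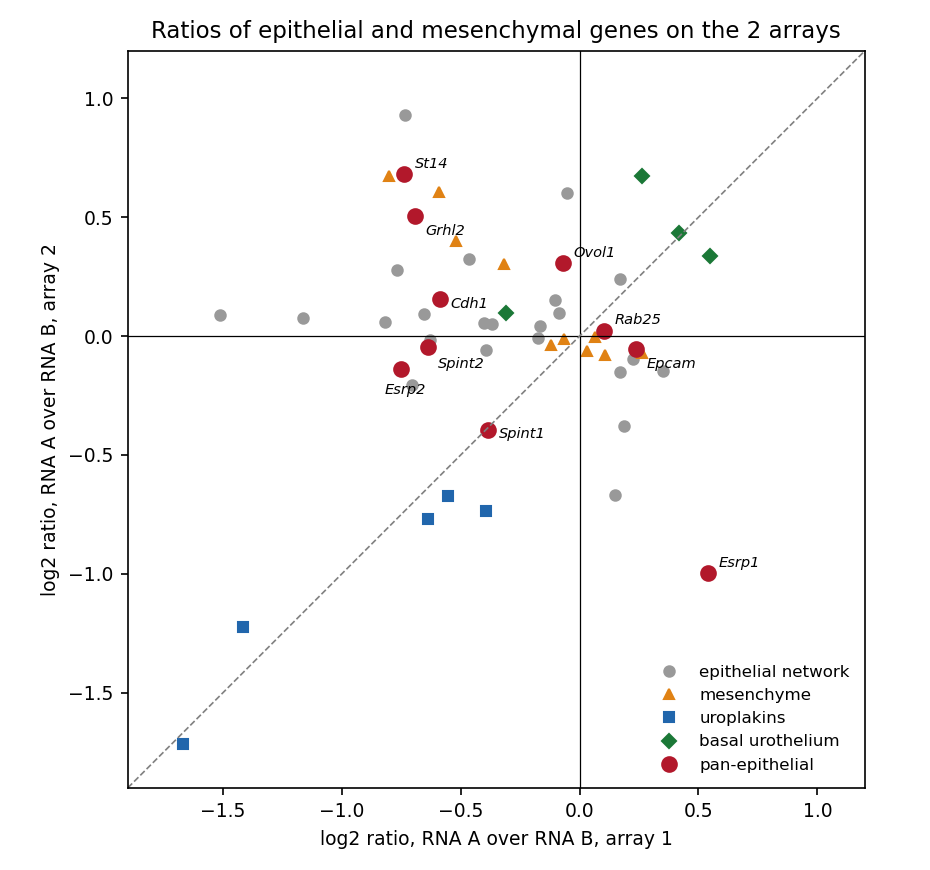
Log2 ratio of RNA A over RNA B on array 1 (x axis) against array 2 (y axis) for the pan-epithelial genes (red, named), the wider epithelial list, mesenchymal, uroplakin and basal urothelial genes, with a dashed line of equality. Spint1 and Rab25 lie close to the line, whereas St14 and Esrp1 lie far from it on opposite sides.

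Cdh1, the gene of E-cadherin, gave signals of 4323 (RNA A) against 6498 (RNA B) on array 1, then 5935 against 5330 on array 2. RNA B was 1.503-fold brighter on array 1 and RNA A 1.11-fold brighter on array 2. The log2 ratio was -0.59 ± 0.02 (SD, n = 4 spots) on array 1 and 0.15 ± 0.04 (SD, n = 4 spots) on array 2. The difference between the arrays was thus far larger than the spread between spots, and the mean of -0.22 ± 0.53 (SD, n = 2 arrays) was not called by limma (unadjusted p = 0.380). Epcam, whose product is a homophilic adhesion molecule, had signals of 3373 against 2861 on array 1, then 2976 against 3092 on array 2. Its log2 ratios of 0.24 and -0.05 were small and of opposite sign, and to the other side of Cdh1 on each array.

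Other adhesion genes gave both signs as well. Cdh3, the gene of P-cadherin, gave signals of 650.2 (RNA A) against 1081 (RNA B) on array 1, then 1074 against 563.7 on array 2. Its log2 ratios of -0.73 and 0.93 crossed by at least 1.5-fold each way, as those of St14 did. The ratios of Ctnnd1, which encodes the p120 catenin that binds cadherins, were -0.40 and 0.06 by its brightest probe, those of Ctnna1, the alpha-catenin gene, -0.17 and -0.01, and those of Ctnnb1, the beta-catenin gene, -0.10 and 0.15.

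Among the transcription factor genes, Grhl2 gave signals of 636.8 (RNA A) against 1030 (RNA B) on array 1, then 1084 against 763.4 on array 2. The log2 ratios were -0.69 and 0.51, or 1.62-fold towards RNA B and 1.42-fold towards RNA A, and the mean was -0.09 ± 0.85 (SD, n = 2 arrays). The dimmer Grhl2 probe, with signals between 31.19 and 41.14, gave the same signs with smaller ratios, -0.23 and 0.27. Ovol1 lay near the signal threshold of 100, at 118.8 against 124.7 on array 1 and 126.5 against 102.3 on array 2. Its ratio on array 1, -0.07 ± 0.09 (SD, n = 4 spots), lay within the spread between spots, whereas that on array 2, 0.31 ± 0.08 (SD, n = 4 spots), did not.

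The relatives of these factors did not share 1 direction. Grhl3, which is needed for terminal differentiation of surface epithelia, had ratios of -0.82 and 0.06, and Grhl1 had -0.63 and -0.02. Both were thus brighter in RNA B on array 1, as Grhl2 was, and near 0 on array 2. Ovol2 had 0.15 and -0.67, opposite in sign to Ovol1 on both arrays. Of the epithelial ETS factor genes, Elf3 had -0.71 and -0.21, while Ehf had 0.17 and 0.24.

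The genes of the splicing regulators did not share 1 pattern. Esrp1 gave signals of 4632 (RNA A) against 3186 (RNA B) on array 1, then 2532 against 5053 on array 2. This is 1.45-fold towards RNA A on array 1 and 2.00-fold towards RNA B on array 2, with log2 ratios of 0.54 and -0.997. The value rests on 1 kept spot per array, but the 3 spots left out on each array gave 0.47 to 0.58 on array 1 and -1.05 to -0.93 on array 2. The dimmer Esrp1 probe, which reads another stretch of the locus, did not show this change. It had signals of 176.5 against 188.1 on array 1, then 193.6 against 196.8 on array 2, or ratios of -0.09 and -0.02. The brighter and dimmer Esrp1 probes therefore disagree, and the gene cannot be given a single ratio.

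Esrp2 was brighter in RNA B each time, with signals of 434.2 (RNA A) against 729.9 (RNA B) on array 1, then 658.4 against 725.2 on array 2. The folds were 1.68 and 1.10. Its mean log2 ratio of -0.44 ± 0.43 (SD, n = 2 arrays) was the lowest of the 10 genes, with the lowest unadjusted limma p, 0.0782. Rbm47, which encodes another epithelial regulator of RNA, had signals of 385.9 against 1100 on array 1, then 835.3 against 784.5 on array 2. Its ratios of -1.51 and 0.09 give the lowest mean of the wider epithelial genes. The dimmer Rbm47 probe gave -1.55 and 0.55. Fgfr2, whose transcripts the ESRP proteins splice, had ratios of 0.17 and -0.15, which describe its amount and not its splice forms.

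St14, the matriptase gene, showed the widest crossing among the members whose probe kept over 1 spot. Its signals were 350.4 (RNA A) against 583.9 (RNA B) on array 1, then 722.2 against 450.1 on array 2. RNA B was 1.67-fold brighter on array 1 (log2 ratio -0.74 ± 0.03, SD, n = 4 spots) and RNA A 1.604-fold brighter on array 2 (0.68 ± 0.06, SD, n = 4 spots), which left a mean of -0.03 ± 1.00 (SD, n = 2 arrays). The RNAs exchanged places between the arrays, and on either array the ratio was many times the spread between spots.

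Spint1, the gene of the matriptase inhibitor HAI-1, differed from its protease in that both arrays gave nearly the same value. Its signals were 1470 (RNA A) against 1919 (RNA B) on array 1, then 1603 against 2105 on array 2. RNA B was 1.31-fold brighter on either array, and the mean log2 ratio was -0.39 ± 0.0062 (SD, n = 2 arrays). The neighbouring dimmer probe gave -0.29 and -0.39. Spint1 thus had the smallest spread between arrays of the 10 genes, but at less than 1.5-fold it did not reach the filter, and limma did not call it (adjusted p = 1.00, unadjusted p = 0.0808).

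Spint2, the gene of HAI-2, gave signals of 2279 (RNA A) against 3546 (RNA B) on array 1, then 3174 against 3281 on array 2. RNA B was 1.56-fold brighter on array 1 and 1.03-fold brighter on array 2. The dimmer probe, whose annotation in the files names another transcript variant, had the same signs and lay between 331.6 and 433.5, with ratios of -0.39 and -0.13 beside -0.64 and -0.05 for the brighter one. Prss8, which encodes prostasin, a protease that acts together with matriptase, had ratios of 0.18 and -0.38 by its brighter probe and of -0.19 and 0.18 by its other probe, so its probes disagree in sign on both arrays. Hpn, the gene of the related membrane protease hepsin, had -0.46 and 0.32, with the signs of St14.

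Rab25 was the only member brighter in RNA A on both arrays, and by little. Its signals were 1759 (RNA A) against 1638 (RNA B) on array 1, then 1940 against 1908 on array 2, or log2 ratios of 0.10 ± 0.03 and 0.02 ± 0.03 (SD, n = 4 spots each). The value on array 2 lay within the spread between spots. Rab17, another small GTPase gene of polarised epithelia, had ratios of -0.05 and 0.60 (0.11 and 0.37 by its dimmer probe), the highest mean of the wider epithelial genes. Rab11fip1, which encodes a RAB11 effector that binds RAB25, had -0.77 and 0.28. Myo5b, the gene of the motor of recycling vesicles, had -0.39 and -0.06, while its dimmer probes gave -0.30 and 0.14 and 0.08 and 0.28.

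A wider list of 23 genes that work with the members (catenins and other adhesion genes, transcription factors, splicing, protease, polarity and trafficking genes) was tested in full. By limma 0 of the 23 were called in either direction, and 0 had an unadjusted p under 0.05, against 3.78% of genes tested. The median of their log2 ratios lay at -0.37 on array 1 and at 0.06 on array 2. On array 1, 17 were brighter in RNA B and 6 in RNA A, where 50% of genes tested were brighter in RNA B. On array 2, 9 were brighter in RNA B and 14 in RNA A, where 45.8% of genes tested were brighter in RNA B. Only Cdh3 passed 1.5-fold in opposite directions, as did 0.43% of all genes. None passed in 1 direction, against 0.157% of all genes towards RNA A and 0.23% towards RNA B. Of its polarity genes, Llgl2 had ratios of -0.65 and 0.09, and Crb3 of -0.08 and 0.10. The wider list thus lay towards RNA B on array 1 and near 0 on array 2, as the 10 members did.

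The 4 keratin genes of simple epithelia were brighter in RNA B on array 1 as well, against 50% of genes tested. Krt8 and Krt18, whose products pair into filaments, had ratios of -0.60 and -0.79 on array 1, and -0.19 and -0.30 were their values on array 2. The dimmer Krt8 probe gave nearly the same value on both arrays, -0.41 and -0.39. Krt18 had an unadjusted limma p of 0.0316 and an adjusted p of 1.00. Krt19 had -0.29 and 0.29, and Krt7 had -0.22 and -0.05. The median of the 4 was -0.44 on array 1 and -0.12 on array 2, and 3 of them were below 0 on both arrays, against 17.4% of genes tested.

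The pan-epithelial genes were next set against those of the tissue around the epithelium. The 10 mesenchymal genes had a median of -0.09 on array 1 and -0.01 on array 2. The pan-epithelial median minus the mesenchymal median was thus -0.39 on array 1 and -0.0033 on array 2. With the wider epithelial list the difference was -0.28 and 0.06, and with the simple keratins -0.35 and -0.11. The lean of epithelial genes to RNA B on array 1 therefore had no counterpart of that size on array 2, and with 1 array per sex this difference between arrays was not tested. By exact sign-flip permutation, 2 arrays cannot give a two-sided p below 0.5.

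Cdh2, the gene of N-cadherin, and Col1a1 crossed by at least 1.5-fold in the manner of St14, at -0.59 and 0.61 and at -0.80 and 0.67, although both are mesenchymal. Vim, the gene of the mesenchymal filament protein vimentin, had 0.07 and -0.01. The highest mean of the mesenchymal genes was that of Dcn, from 0.26 and -0.07, and the lowest that of Col3a1, from -0.12 and -0.04. The repressors of the epithelial state had a median of -0.11 on array 1 and 0.14 on array 2, and limma called none of these 5. Zeb1 had ratios of 0.15 and -0.02 and Zeb2 of -0.03 and 0.32. Snai1 had the lowest mean, from -0.63 and 0.13, and Snai2 the highest, from -0.20 and 0.57. The other probes of Zeb2 gave 0.55 and -0.05 and, at low signal, 0.57 and -0.09, opposite in sign to its brightest probe on both arrays.

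**Figure D4:**
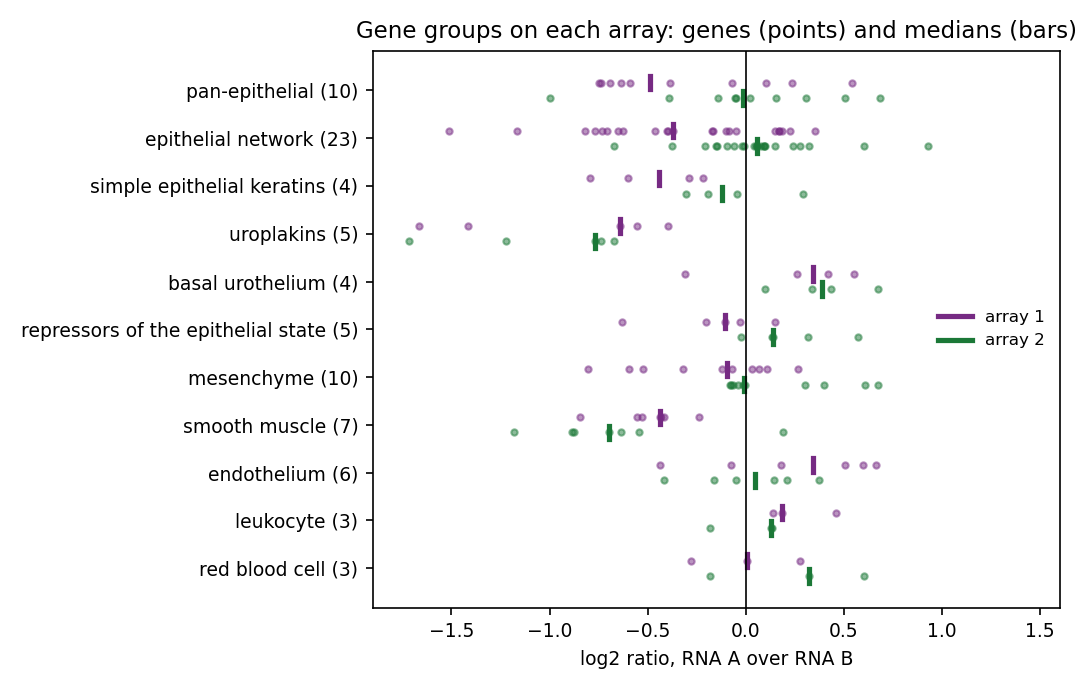
Log2 ratio of RNA A over RNA B for the genes of each group (number of tested genes in brackets), with purple points for array 1, green points for array 2 and a bar at each median. The pan-epithelial, wider epithelial and simple keratin medians lie left of 0 on array 1 (-0.49, -0.37 and -0.44) and closer to 0 on array 2, whereas uroplakins and smooth muscle lie left of 0 on both.

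Genes of differentiated urothelium were set against the pan-epithelial ones on the same array. The 5 uroplakin genes, which encode the membrane plaques of superficial cells, had a median of -0.64 on array 1 and -0.77 on array 2. Relative to the pan-epithelial median they lay at -0.15 on array 1 and -0.76 on array 2. RNA B was the brighter for all 5 on each array, against 17.4% of genes tested. Of the 5, 3 passed the filter, against 0.23% of all genes towards RNA B. Limma called 2, Upk1a (adjusted p = 0.0451) and Upk3b (adjusted p = 0.0201), against 0.187% of genes tested towards RNA B. Upk3a, the other gene past the filter, had ratios of -0.64 and -0.77, and Upk2, with the highest mean, had -0.40 and -0.74. Upk1a had -1.42 and -1.22, Upk3b -1.67 and -1.71, and Upk1b -0.55 and -0.67. On array 1 the uroplakin and pan-epithelial medians were therefore close, although Upk1a and Upk3b lay far below both. On array 2 the medians were apart. The 4 genes of basal urothelium had medians of 0.34 and 0.39, or 0.83 and 0.40 above the pan-epithelial median. Krt5 had 0.26 and 0.67, and Trp63, the gene of the basal transcription factor p63, had -0.31 and 0.10. The other 3 probes of Trp63 gave -0.30, -0.40 and 0.12 on array 1 and -0.26, -0.30 and -0.23 on array 2, where all were opposite in sign to its brightest probe. The uroplakins were known from earlier results of these data to differ between the RNAs, so their counts are no independent evidence.

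Markers of other cells are given beside the pan-epithelial genes. The nephron and the collecting duct also carry epithelial genes. Of 7 nephron genes 3 were tested. Lrp2, the gene of the endocytic receptor megalin, gave signals of 196.3 (RNA A) against 229.8 (RNA B) on array 1, then 210.8 against 291.0 on array 2. Umod, Slc12a1, Slc12a3 and Nphs1 were not well above background on both arrays in either RNA, and limma called Slc34a1 towards RNA B at signals between 4.197 and 37.15 (adjusted p = 0.0122). This call rests on 1 of its probes, with ratios of -2.31 and -3.15 and with RNA A of array 1 not well above background, and the other probe gave -0.19 and -0.24. The 5 collecting duct genes had a summed signal of 851.7 against 551.6 on array 1, then 792.8 against 331.8 on array 2, most of it from Fxyd4 (ratios 0.77 and 1.56, past the filter). Aqp2, at 0.16 and 0.08, was closer to 0. Avpr2 had 0.54 and 1.02 at signals between 2.267 and 9.528, and was too dim to be tested by limma. Calb1 and Hsd11b2 each gave both signs. Calb1 had 0.39 and -0.62, with 0.62 and -1.14 from its other probe, and Hsd11b2 had -0.20 and 0.41. The part of kidney tissue in the pan-epithelial ratios was not tested.

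The 7 smooth muscle genes had medians of -0.44 and -0.69, with 6 below 0 on both arrays, against 17.4% of genes tested. Their summed signals were 77447 (RNA A) against 98639 (RNA B) on array 1, then 73776 against 129071 on array 2. Smooth muscle and pan-epithelial genes thus both leaned to RNA B on array 1, and smooth muscle genes did so on array 2 too. Their lowest mean was that of Myh11, from -0.42 and -1.18, and their highest that of Des, from -0.44 and 0.19. The 6 endothelial genes had medians of 0.34 and 0.05, and the 3 leukocyte genes 0.18 and 0.13. Cldn5 (0.18 and 0.37) and Cdh5 (-0.44 and 0.21) had the highest and lowest endothelial mean, and Csf1r (0.18 and 0.13) and Ptprc (0.46 and -0.18) those of leukocytes. The dimmer probes of Csf1r gave 0.36 and 0.01 and, with a change of sign, 0.52 and -0.73. Of the genes of red blood cells, Alas2, with the lowest mean, had -0.28 and 0.32. Summed signals of the endothelial genes were 13177 and 11898 on array 1 and 12778 and 12398 on array 2. The part of these cells in the pan-epithelial ratios was not tested.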

How the data were processed

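The deposited intensities came from Feature Extraction 10.7.3.1 (file headers). The authors' processed intensities were background-subtracted, replaced by surrogates near background and dye-normalised by a linear step and LOWESS, so ratios of dim probes depend on that step. Mean and local background intensities, as deposited, served an alternative. The deposited log10 ratio entered no value given here. The authors' deposited table gives each probe a signed fold change on each array, treated as a score because its direction is unstated, and was used as a check and an alternative. In the labels the second channel carries an earlier stage than the titles, and the titles' E16.5 was used.

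Control spots (17263 per array) and outlier spots (5705 and 5579) were left out. RefSeq's gene table (GRCm38.p6) named 28328 of 39429 probes, and the other 11101 kept the file's name. The probe with the highest mean log2 signal represented a gene, and a probe counted as well above background if a share of 0.5 or more of its kept spots did. The fit with limma 3.58.1 in R 4.3.3 took the 21429 genes that met this in either RNA on both arrays. Alternatives were normexp (offset 50) with loess, loess, median centring, the authors' table, mean over probes, outlier spots kept, other thresholds, dim probes kept, a trended variance and each array alone, and the other Esrp1 probe was added after seeing the data. Named are the 10 members, of each other list the genes with the highest and lowest mean among those tested or past the filter or limma, a set of fixed genes, and further list genes named for their role after their values were seen. The members and lists were chosen with earlier results of these data known. Tables were read with data.table (version 1.17.8) and pandas 2.3.3 and plotted with matplotlib 3.10.9. The p-values measure the spread between 2 arrays only. Values of some listed genes are not reported here.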

Additional observations from a re-analysis of the deposited data

Results flagged for a closer look

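Of the 10 pan-epithelial genes, 6 had ratios of opposite sign on the female and the male array, and each is given as the log2 ratio on array 1 minus that on array 2. The difference was -0.74 for Cdh1, 0.29 for Epcam, 1.54 for Esrp1, -1.20 for Grhl2, -0.38 for Ovol1 and -1.42 for St14. The Esrp1 value is that of its brighter probe, and its dimmer probe gave the same sign on both arrays, -0.09 and -0.02. Among the genes set beside them, Cdh3 (-1.66), Cdh2 (-1.20) and Col1a1 (-1.48) passed 1.5-fold in opposite directions, as did 0.43% of all genes. These differences were not tested, since each sex was read on 1 array and the dyes changed with the sex. Opposite signs on the arrays occurred for 32.6% of genes tested in the order of Cdh1 and for 28.4% in the order of Epcam.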

How the results depend on the processing

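Across the settings that kept both arrays, each pan-epithelial gene kept the direction of its mean log2 ratio, and limma called 0 of the 10 in each. Their median ranged from -0.53 to -0.40 on array 1 and from -0.04 to 0.0024 on array 2, where its sign was not stable, and the median minus the mesenchymal median from -0.46 to -0.36 and from -0.02 to 0.04. The number past the filter in opposite directions was 1 at 1.5-fold, 0 at 2-fold and 3 at 1.2-fold. Of all 29982 genes, 129, 0 and 1601 did so at these folds. Towards RNA B the number was 0 at 1.5-fold and 1 at 1.2-fold, against 69 and 265 of all genes. With 1 array alone there is no test, and the number past 1.5-fold was 0 to 1 towards RNA A and 1 to 5 towards RNA B. The array 2 ratio alone reversed the mean of Cdh1 (0.15), Epcam (-0.055), Grhl2 (0.51) and St14 (0.68), and array 1 alone reversed those of Esrp1 (0.54) and Ovol1 (-0.069). Single-array ratios ranged from -0.59 to 0.15 for Cdh1, -0.055 to 0.24 for Epcam, -0.997 to 0.54 for Esrp1, -0.75 to -0.14 for Esrp2, -0.69 to 0.51 for Grhl2, -0.069 to 0.31 for Ovol1, 0.02 to 0.10 for Rab25, -0.39 to -0.38 for Spint1, -0.64 to -0.05 for Spint2 and -0.74 to 0.68 for St14. Over all genes tested limma called 67, and between 0 and 70 in the alternatives (0 with dim probes kept or with the deposited table, 1 with normexp and loess, 33 with loess). Under normexp with loess, 1 of the 10 had an unadjusted p under 0.05. Limits are 1 ratio per array, dye and sex that change together, pooled embryos and brightness that cannot be compared between probes. The causes were not tested. No paired analysis was possible beyond the pairing of RNAs within an array, which the limma fit on ratios already uses, because the arrays form 1 group.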
